A study of Mus musculus with 6 samples.

Results

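The genes described here are 10 core components of TGF-beta signaling, taken by symbol from a table of 27202 genes measured in colonic tissue. They comprise 3 ligands (Tgfb1, Tgfb2 and Tgfb3), the type I and type II receptors (Tgfbr1 and Tgfbr2), 4 SMAD proteins (Smad2, Smad3, Smad4 and Smad7) and the co-repressor gene Skil. All 10 were listed and all 10 passed the filter on low values, a mean of at least 10 normalized counts over the libraries. RNA was sequenced from colon in 3 libraries from Nedd4l fl/fl VillinCre mice and 3 from Nedd4l fl/fl littermates (controls), aged 8 to 10 weeks and on a C57BL/6J background. Both genotypes carried the floxed Nedd4l alleles and received 2% dextran sulfate sodium (DSS), which damages the epithelium of the colon, in drinking water for 7 days. Cre under the Villin promoter deletes Nedd4l in intestinal epithelial cells (IECs), so that fibroblasts, endothelium, muscle and immune cells in the same tissue keep the gene. There was no group without DSS, so the values do not show what DSS itself did to these genes. The labels give 3 titles for each genotype and do not say whether each library came from 1 mouse, so p-values measure the spread between these libraries.

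TGF-beta is made as a latent dimer that is bound to the matrix and must be released before it can act. The free ligand brings together TGFBR2 and TGFBR1, TGFBR1 phosphorylates SMAD2 and SMAD3, and these enter the nucleus with SMAD4 to change transcription. NEDD4L is a HECT ubiquitin ligase known to bind activated SMAD2 and SMAD3 and to direct their degradation, which is a step on proteins that RNA levels do not show. SMAD7 and SnoN, the product of Skil, restrain the pathway, and both genes are induced by it. In the gut, TGF-beta is known for restraining inflammation, for epithelial restitution and for driving matrix production by fibroblasts.

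Upstream sequences of the ligand with the highest and the ligand with the lowest level per gene length are shown, because their RNAs stand far apart in the same tissue. They are the 250 bases before the annotated start in RefSeq on GRCm38.p6, at chr7:25686752-25687001 on the plus strand for Tgfb1 and at chr1:186705990-186706239 on the minus strand for Tgfb2. Capitals mark every match on either strand to the SMAD box CAGAC, the GC box GGGCGG or the TATA box TATAAA, and none of the marked matches overlap.
Tgfb1: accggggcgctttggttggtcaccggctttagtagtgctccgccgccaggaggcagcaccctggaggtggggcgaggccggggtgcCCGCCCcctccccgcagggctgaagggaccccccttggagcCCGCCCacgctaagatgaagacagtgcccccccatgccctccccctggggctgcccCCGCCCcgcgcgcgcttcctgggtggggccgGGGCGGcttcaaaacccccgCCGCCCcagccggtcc
Tgfb2: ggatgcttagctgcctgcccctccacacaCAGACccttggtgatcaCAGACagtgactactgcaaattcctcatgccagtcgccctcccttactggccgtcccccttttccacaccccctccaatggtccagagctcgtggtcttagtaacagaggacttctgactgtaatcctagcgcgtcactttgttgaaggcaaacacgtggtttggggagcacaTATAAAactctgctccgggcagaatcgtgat
The Tgfb1 window held 5 GC boxes, 0 SMAD boxes and 0 TATA boxes, with a GC content of 75.2%. That of Tgfb2 held 2 SMAD boxes, a single TATA box whose first base lay 31 bases before the start, and 0 GC boxes, with a GC content of 53.6%. Of 32851 upstream windows of this length, 32.7% held a GC box, 42.2% a SMAD box and 12.4% a TATA box. Of the 10 genes, windows of 5 were used (Tgfb1, Tgfb2, Tgfbr1, Tgfbr2 and Smad3). Windows of Smad2, Smad4 and Smad7 were left out before matching, and Tgfb3 and Skil had no match. A match of letters describes the sequence and does not show that a factor binds there.

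Values are normalized counts, the reads per gene that the authors divided by 1 size factor per library. Library totals, in units of each library's smallest value, lay between 14914367 and 17547270. Nedd4l, the targeted gene, had normalized counts of 476, 942 and 566 in Nedd4l fl/fl VillinCre replicates 1, 2 and 3 and of 1241, 1271 and 1266 in control replicates 1, 2 and 3. Every Nedd4l fl/fl VillinCre library was therefore below every control library for Nedd4l, with replicate 2 the closest (log2 fold change -0.99, standard error 0.24, adjusted p = 0.225 from limma). Over all genes, the mean correlation between this replicate and the controls was 0.977, against 0.966 with the other libraries of its own genotype. Replicate 1 stood apart in another way, with summed neutrophil markers (S100a8, S100a9, Csf3r and Retnlg) of 6567, against 146 and 978 in replicates 2 and 3 and 94.5 to 137 in Nedd4l fl/fl mice. Over the 16246 genes tested, limma called 0 higher and 0 lower in Nedd4l fl/fl VillinCre mice at an adjusted p under 0.05, which is 0% in each direction, and the smallest adjusted p was 0.111. At an unadjusted p under 0.05, 6.91% of genes were higher and 7.08% lower. All 3 Nedd4l fl/fl VillinCre libraries were above all 3 controls for 10.5% of genes and below them for 10.9%.

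None of the 10 TGF-beta genes passed an adjusted p of 0.05 in limma, and their adjusted p ran from 0.343 to 0.980. At an unadjusted p under 0.05, 2 were higher (Tgfb1 and Skil) and 0 lower, where 6.91% of all genes were higher and 7.08% lower. By sign alone 7 of the 10 log2 fold changes were above 0 and 3 below, where 50.2% of all genes were above 0. Their median was 0.054, beside 0.0013 for all genes tested. The genotypes did not overlap for 1 gene of the 10, Tgfb1, and overlapped for the other 9. Over all genes, 10.5% lay above the controls in this way, so 1 of 10 is near that share. The DSS-treated colon of both genotypes thus held the complete set of ligand, receptor and SMAD transcripts. Missing the adjusted threshold with 3 against 3 libraries does not show that their levels were equal. Because whole tissue was sequenced, fewer cells of a type and less RNA per cell cannot be told apart for any of these genes.

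**Figure D1:**
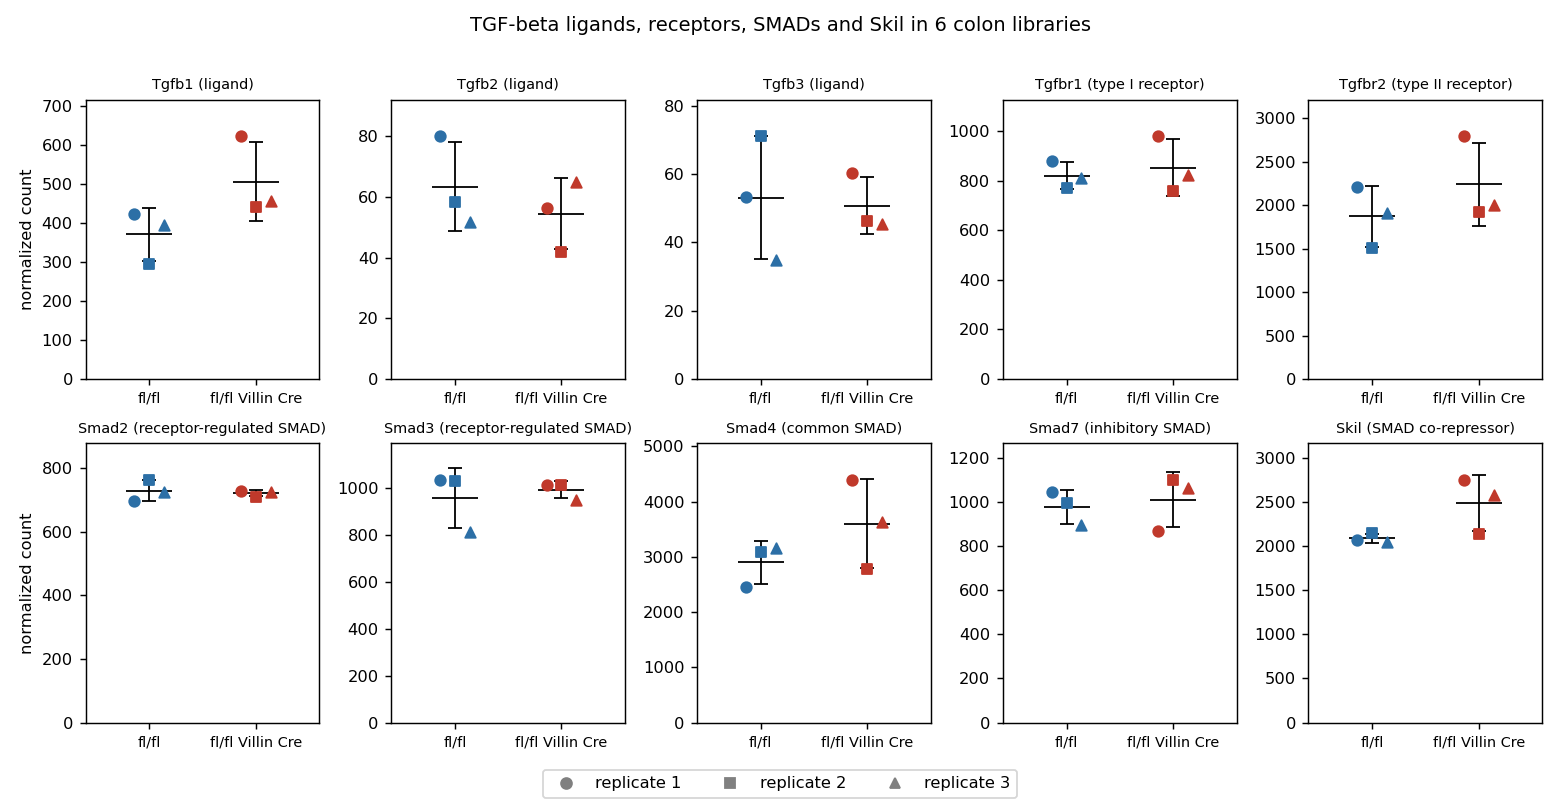
Normalized counts (vertical axes, each from 0) of the 10 genes in the 3 Nedd4l fl/fl libraries (blue) and the 3 Nedd4l fl/fl VillinCre libraries (red). Symbols give the replicate number and black bars the mean and SD. The 2 genotypes separate completely for Tgfb1, where the lowest red value is 440.0 and the highest blue value 424, while the 6 values of Smad2 lie between 697 and 763.

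Among the ligands, Tgfb1 encodes the form made by most immune and stromal cells. Tgfb1 (ENSMUSG00000002603, GRCm38 chromosome 7, 25687002 to 25705077, plus strand) had normalized counts of 622, 440.0 and 457 in Nedd4l fl/fl VillinCre replicates 1, 2 and 3, and of 424, 294 and 394 in control replicates 1, 2 and 3. Each Nedd4l fl/fl VillinCre library was above each control, but replicates 2 and 3 exceeded the highest control by less than the range of the controls. Mean levels were 506 ± 101 with deletion and 371 ± 67.9 without (SD, n = 3 each), a ratio of 1.37. On the log2 scale the difference was 0.45 (standard error 0.18, 95% interval 0.023 to 0.87, unadjusted p = 0.0411, adjusted p = 0.343 from limma). It was 0.29 when Nedd4l fl/fl VillinCre replicate 1 was left out and also 0.29 when control replicate 2 was left out, the libraries with the highest and the lowest value, with adjusted p of 0.524 and 0.601 from limma.

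Tgfb2 and Tgfb3, the ligands best known from development and mesenchyme, were scarce. Tgfb2 (ENSMUSG00000039239, chromosome 1 from 186622792 to 186705989, minus strand) had normalized counts of 56.6, 42.0 and 65.0 in the Nedd4l fl/fl VillinCre replicates and of 80.0, 58.5 and 51.9 in the control replicates. The highest value was that of a control and the lowest that of a Nedd4l fl/fl VillinCre library, and the ranges overlapped (log2 fold change -0.21, 95% interval -0.84 to 0.41, adjusted p = 0.733 from limma). Tgfb3 (ENSMUSG00000021253, chromosome 12 from 86056745 to 86079041, minus strand) had 60.4, 46.4 and 45.4 normalized counts in the Nedd4l fl/fl VillinCre replicates and 53.3, 71.1 and 34.9 in the controls. Both the highest and the lowest Tgfb3 value were those of controls, and the log2 fold change was -0.020 (95% interval -0.73 to 0.69, adjusted p = 0.980 from limma). The intervals of these ligands are the widest of the 10 genes, and that of Tgfb3 holds changes between 0.605 and 1.61 times. Ttll5, on the opposite strand, overlaps Tgfb3 and had normalized counts of 247 to 354, and whether counting used strand is not stated, so the Tgfb3 values may include reads from Ttll5.

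Per kilobase of the gene length that the table lists, Tgfb1 made up most of the ligand RNA. Its share of the summed level of the 3 ligands was 81.7%, 80.6% and 78.6% in Nedd4l fl/fl VillinCre replicates 1, 2 and 3 and 74.0%, 65.2% and 80.2% in the control replicates. The shares overlapped between the genotypes, with means of 80.3 ± 1.56% (SD, n = 3) and 73.1 ± 7.53% (SD, n = 3). Tgfb3 supplied 10.6% to 23.5% and Tgfb2 6.47% to 12.2% over the 6 libraries. The order of these scarce ligands depended on the gene length, since without dividing by it the mean share was 9.76% for Tgfb3 and 11.0% for Tgfb2. Control replicate 2, where Tgfb1 had its lowest and Tgfb3 its highest value, set the lower end for Tgfb1 and the upper end for Tgfb3.

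Tgfbr2 encodes the type II receptor, a constitutively active kinase that binds the ligand first (ENSMUSG00000032440, chromosome 9 from 116084293 to 116175360, minus strand). Its normalized counts were 2791, 1921 and 2005 in Nedd4l fl/fl VillinCre replicates 1, 2 and 3 and 2207, 1502 and 1908 in the control replicates. Replicate 1 of the Nedd4l fl/fl VillinCre mice was the highest and replicate 2 of the controls the lowest, as for Tgfb1, while the other 4 libraries were intermixed. The difference on the log2 scale was 0.25 (95% interval -0.19 to 0.70, adjusted p = 0.555 from limma). Leaving out Nedd4l fl/fl VillinCre replicate 1 gave 0.086 for Tgfbr2, and leaving out control replicate 2 gave 0.11. Tgfbr1 encodes the type I receptor, the kinase that phosphorylates SMAD2 and SMAD3 (ENSMUSG00000007613, chromosome 4 from 47353222 to 47414931, plus strand). It stood at 978, 757 and 822 normalized counts in the Nedd4l fl/fl VillinCre replicates and at 878, 769 and 811 in the controls. The highest and the lowest of these 6 values were both from Nedd4l fl/fl VillinCre mice (log2 fold change 0.051, 95% interval -0.21 to 0.31, adjusted p = 0.859 from limma).

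SMAD2 and SMAD3, the receptor-regulated SMADs that NEDD4L is known to target, had nearly equal RNA levels in the 2 genotypes. Smad2 (ENSMUSG00000024563) had normalized counts of 729, 709.8 and 726 in Nedd4l fl/fl VillinCre replicates 1, 2 and 3 and of 697, 763 and 725 in the control replicates. All 3 Nedd4l fl/fl VillinCre values lay inside the range of the controls. The means were 721 ± 10.2 and 728 ± 33.0 (SD, n = 3 each), with a difference of -0.013 on the log2 scale and the narrowest interval of the 10 genes (-0.20 to 0.17, adjusted p = 0.955 from limma). That interval holds changes in Smad2 RNA between 0.870 and 1.13 times, and no larger ones. Smad3 (ENSMUSG00000032402, chromosome 9 from 63646767 to 63757994, minus strand) had 1013, 1015 and 951 normalized counts in the Nedd4l fl/fl VillinCre replicates and 1036, 1031 and 813 in the controls. Of these, 1 control was the lowest and the other two were the highest, so that the Nedd4l fl/fl VillinCre libraries lay within the control range for Smad3 as well (log2 fold change 0.057, 95% interval -0.20 to 0.31, adjusted p = 0.837 from limma). These are RNA levels, and the amount or phosphorylation of the SMAD2 and SMAD3 proteins was not measured in these data.

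Smad4 encodes the common partner of the receptor-regulated SMADs and had the highest level per gene length of the 10 genes. Smad4 (ENSMUSG00000024515) had normalized counts of 4393, 2788 and 3628 in Nedd4l fl/fl VillinCre replicates 1, 2 and 3 and of 2451, 3083 and 3159 in the control replicates. Replicates 1 and 3 of the Nedd4l fl/fl VillinCre mice were above every control, whereas replicate 2 was below 2 of them. The means were 3603 ± 803 and 2898 ± 389 (SD, n = 3 each), a log2 difference of 0.30 (95% interval -0.12 to 0.72, adjusted p = 0.469 from limma). It was 0.14 without Nedd4l fl/fl VillinCre replicate 1, 0.18 without control replicate 1 and 0.47 without Nedd4l fl/fl VillinCre replicate 2.

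Of the restraining genes, Skil and Smad7 differed in how the libraries fell. Skil encodes SnoN, a nuclear protein that holds SMAD complexes inactive and is degraded when the pathway is switched on (ENSMUSG00000027660, chromosome 3 from 31095058 to 31122577, plus strand). Its normalized counts were 2747, 2133 and 2575 in Nedd4l fl/fl VillinCre replicates 1, 2 and 3, and 2065, 2147 and 2045 in the control replicates. The controls lay close together, replicates 1 and 3 of the Nedd4l fl/fl VillinCre mice were above all of them, and replicate 2 lay among them, so the genotypes overlapped. The means were 2485 ± 317 and 2086 ± 53.8 (SD, n = 3 each), a log2 difference of 0.24 (standard error 0.10, 95% interval 0.0053 to 0.48, unadjusted p = 0.0462, adjusted p = 0.352 from limma). It was 0.35 without Nedd4l fl/fl VillinCre replicate 2 (adjusted p = 0.1001 from limma) and 0.17 without replicate 1 (adjusted p = 0.542 from limma). Smad7, which encodes the inhibitory SMAD that occupies TGFBR1 and recruits SMURF ubiquitin ligases (ENSMUSG00000025880), had 869, 1100.0 and 1062 normalized counts in the Nedd4l fl/fl VillinCre replicates and 1043, 994 and 895 in the controls. Replicate 1 of the Nedd4l fl/fl VillinCre mice, the highest library for Skil, was the lowest of the 6 for Smad7 (log2 fold change 0.044, 95% interval -0.22 to 0.31, adjusted p = 0.881 from limma).

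**Figure D2:**
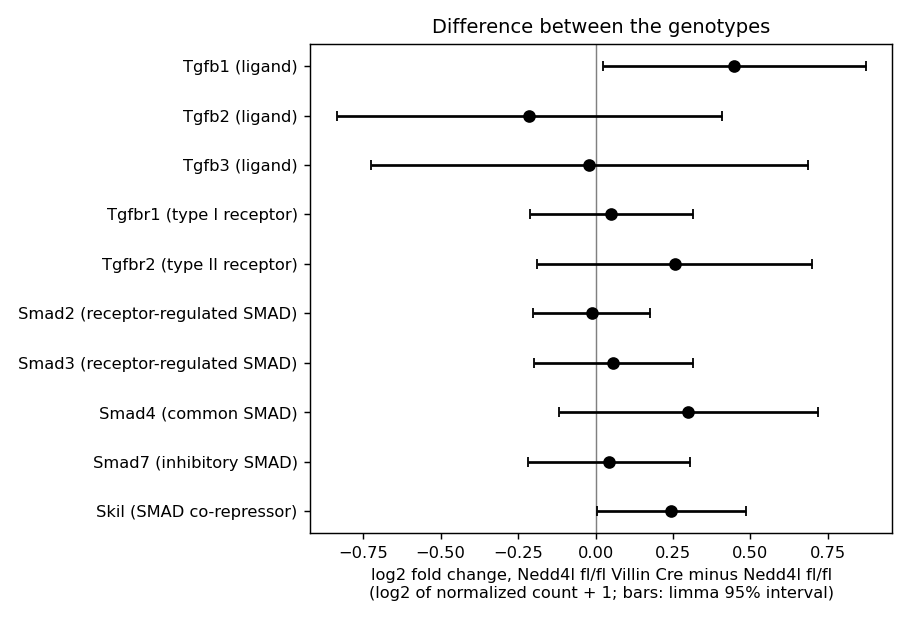
Log2 fold change between Nedd4l fl/fl VillinCre and Nedd4l fl/fl libraries for the 10 genes (horizontal axis, on the scale of log2 of the normalized count + 1), with limma's 95% interval as bars. The intervals of Tgfb1 and Skil start just above 0, at 0.023 and 0.0053, and those of the other 8 genes include 0. The intervals are not adjusted for the 16246 genes tested.

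Levels of the 10 genes were compared with each other per kilobase of gene length. In the Nedd4l fl/fl libraries Smad4 led with 781 ± 105 (SD, n = 3) normalized counts per kilobase, and its lowest library, of either genotype, was above the highest library of any other gene. Next came Tgfbr2 with 229 ± 43.2, Smad7 with 216 ± 16.7, Skil with 215 ± 5.55 and Smad2 with 205 ± 9.29 normalized counts per kilobase, and each neighbor in this order overlapped the next. Below them stood Smad3 (173 ± 23.0), Tgfbr1 (125 ± 8.40) and Tgfb1 (73.5 ± 13.5), which were separated from each other in the controls. Over all 6 libraries the ranges of Smad3 and Tgfbr1 overlapped, and so did those of Tgfbr1, with a lowest value of 116, and Tgfb1, with a highest value of 123.4. Tgfb3 (15.7 ± 5.34) and Tgfb2 (11.0 ± 2.54) were lowest and overlapped each other. Among these 10 genes, the means of the 3 ligands were thus the lowest per gene length.

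**Figure D3:**
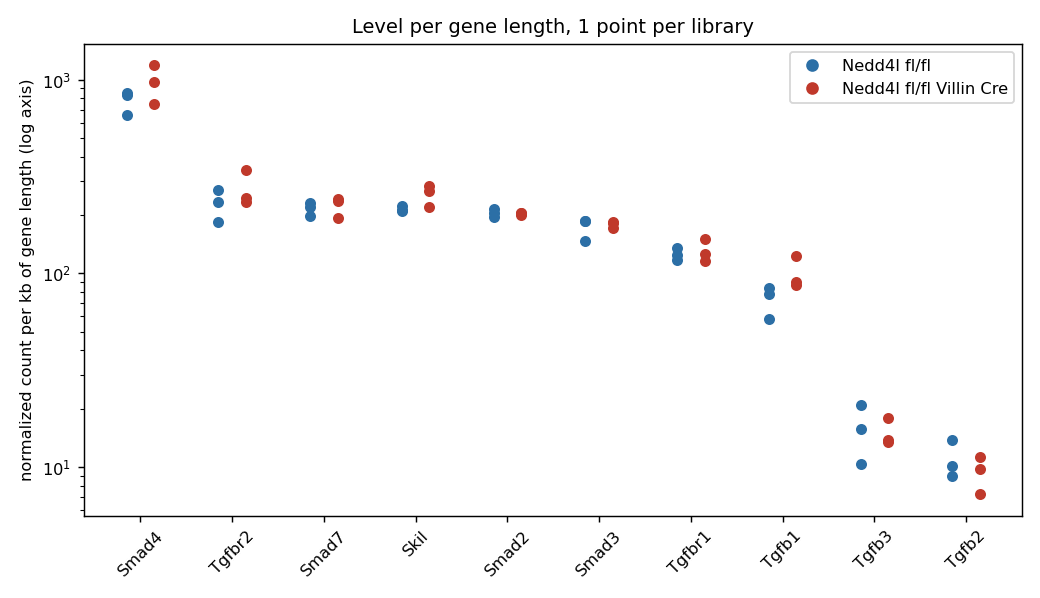
Normalized count per kilobase of gene length (log axis) for the 10 genes, ordered by their mean in Nedd4l fl/fl mice, with 1 point for each library (blue, Nedd4l fl/fl; red, Nedd4l fl/fl VillinCre). Smad4 stands alone at the top, between 660.3 and 1183, and Tgfb3 and Tgfb2 stand at the bottom, between 7.25 and 21.01.

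Around this core, genes that hold, release or present TGF-beta were examined as a list of 13 genes for latent TGF-beta binding proteins, integrins, anchoring proteins and proteases. All 13 were tested, with 0 at an adjusted p under 0.05, and 4 were higher and 0 lower at an unadjusted p under 0.05, where 6.91% of all genes were higher and 7.08% lower. By sign 12 of 13 were above 0, beside 50.2% of all genes, with a median log2 fold change of 0.60. Nrros, which anchors latent TGF-beta on macrophages and microglia, had 388, 260 and 248 normalized counts in Nedd4l fl/fl VillinCre replicates 1, 2 and 3 and 169, 157 and 204 in the controls (log2 fold change 0.73, adjusted p = 0.250 from limma). The genotypes did not overlap for Nrros, with 2 such genes in the list of 13, where 10.5% of all genes lay above. Emilin1, a matrix protein that hinders processing of the TGF-beta precursor, stood at 832 ± 211 and 573 ± 66.8 normalized counts (SD, n = 3 each), again without overlap (log2 fold change 0.51, adjusted p = 0.310 from limma). Ltbp1, which ties latent TGF-beta to the matrix, and Fbn1, the microfibril to which it is tied, had log2 fold changes of 0.65 and 0.89 with overlapping genotypes (adjusted p = 0.326 and 0.349 from limma). Leaving out Nedd4l fl/fl VillinCre replicate 1 gave 0.27 for the median of this list, 0.32 for Emilin1 and 0.39 for Ltbp1, and leaving out control replicate 2 gave 0.57 for Fbn1. Among 7 genes for co-receptors and receptors of activin-like ligands, 3 were above 0 and 4 below. The smallest p values there were those of the co-receptor genes Tgfbr3 and Eng, with log2 fold changes of 0.66 and 0.54 (adjusted p = 0.392 and 0.418 from limma).

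In a list of 22 inhibitors, ubiquitin ligases and cofactors of SMADs, 21 genes were tested, and Foxh1 was below the filter with at most 0.999 normalized counts. None passed an adjusted p of 0.05 in limma, while 3 were higher and 1 lower at an unadjusted p under 0.05, where 6.91% of all genes were higher and 7.08% lower, and the median log2 fold change was 0.031. The groups did not overlap upward for 5 of the 21, where 10.5% of all genes lay above. Smurf2, a HECT ligase of the NEDD4 family that acts on SMADs and their receptors, had 1287, 1244 and 1106 normalized counts in the Nedd4l fl/fl VillinCre replicates and 975, 1054 and 1004 in the controls. All 3 values were above all 3 controls for Smurf2, a difference of 0.26 on the log2 scale (adjusted p = 0.301 from limma). Rnf111, whose product Arkadia degrades SMAD7 and SnoN, was likewise without overlap at 861 ± 51.8 and 746 ± 23.7 normalized counts (log2 fold change 0.21, adjusted p = 0.343 from limma). Pmepa1, a pathway-induced gene whose product sequesters SMAD2 and SMAD3, had 1522, 865 and 905 normalized counts against 695, 740.4 and 640.1 in the controls (log2 fold change 0.62, adjusted p = 0.313 from limma). Here too every Nedd4l fl/fl VillinCre library was above every control, and replicate 1 was far above the other two. Without replicate 1 the difference for Pmepa1 was 0.36 (adjusted p = 0.251 from limma). Tgif1, a transcriptional co-repressor of SMADs, lay in the other direction at -0.40 on the log2 scale (adjusted p = 0.331 from limma) and overlapping genotypes. Of 4 other SMAD genes, those with the smallest p were Smad1, which carries BMP signals (0.19, adjusted p = 0.447 from limma), and Smad6, the inhibitory SMAD of the BMP branch (-0.38, adjusted p = 0.536 from limma).

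A further list held genes known to be induced or regulated by TGF-beta. Like the other lists, it was chosen with earlier results of these data known, so its counts are a description only. Of these 28 genes, 27 were tested, since Cthrc1 was below the filter with at most 1.80 normalized counts. Limma called 0 of them at an adjusted p under 0.05. At an unadjusted p under 0.05, 11 were higher and 1 lower, that is 11 of 27 where 6.91% of all genes were higher, and the groups did not overlap for 10 upward, where 10.5% of all genes lay above. By sign 20 were above 0 and 7 below, where 50.2% of all genes were above 0. Their median log2 fold change was 0.51, beside 0.0013 for all genes tested. Of those 10 genes, 8 had their highest value in Nedd4l fl/fl VillinCre replicate 1 and 9 had their lowest Nedd4l fl/fl VillinCre value in replicate 2. Without replicate 1 of the Nedd4l fl/fl VillinCre mice the median was 0.26.

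Matrix genes made up most of the target genes that lay above the controls without overlap. Fn1, which encodes fibronectin, had 4216, 4411 and 4132 normalized counts in Nedd4l fl/fl VillinCre replicates 1, 2 and 3 and 3348, 2246 and 2307 in the controls. The Nedd4l fl/fl VillinCre libraries agreed closely for Fn1 and were all above the controls (log2 fold change 0.72, standard error 0.15, unadjusted p = 0.00162, adjusted p = 0.192 from limma). Col1a1, for the alpha 1 chain of type I collagen, had 7907, 3461 and 4009 normalized counts in the Nedd4l fl/fl VillinCre replicates and 2452, 1862 and 2254 in the controls. Col1a1 had a log2 difference of 1.14 (standard error 0.32, adjusted p = 0.280 from limma). Without replicate 1 of the Nedd4l fl/fl VillinCre mice it was smaller but less variable, at 0.78 (standard error 0.13, adjusted p = 0.0777 from limma). Col1a2, Col3a1 and Col4a1, further collagen genes, had log2 fold changes of 0.98, 1.08 and 1.18 without overlap between the genotypes (adjusted p from 0.265 to 0.310 from limma). Col4a1 was at 0.74 without Nedd4l fl/fl VillinCre replicate 1 (adjusted p = 0.0885 from limma). Lox, the enzyme that crosslinks collagen, had 822, 156 and 258 normalized counts in the Nedd4l fl/fl VillinCre replicates and 89.9, 54.9 and 83.9 in the controls (log2 fold change 2.09, adjusted p = 0.284 from limma). For Lox the lowest Nedd4l fl/fl VillinCre library was still above the highest control, and replicate 1 was far above the other 2. Without replicate 1 the log2 difference for Lox was 1.42 (adjusted p = 0.144 from limma). Tgfbi, a secreted matrix protein named for its induction by TGF-beta, and Itgb5, an integrin chain, had log2 fold changes of 0.76 and 0.27 without overlap (adjusted p = 0.301 and 0.293 from limma).

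Other genes of the target list included a cytokine and transcription factors. Il11, a fibroblast cytokine of the IL-6 family, had 317, 16.6 and 166 normalized counts in Nedd4l fl/fl VillinCre replicates 1, 2 and 3 and 7.90, 9.90 and 3.00 in the controls. Replicates 1 and 3 were far above the controls for Il11, while replicate 2 was only just above them (log2 fold change 3.75, standard error 1.12, adjusted p = 0.286 from limma). Leaving replicate 2 out gave a log2 difference of 4.98 for Il11 (adjusted p = 0.0232 from limma), and leaving replicate 1 out gave 2.89. The control mean of Il11 was 6.93, below the mean of 10 used as filter. Il11 thus passed the filter only through the Nedd4l fl/fl VillinCre libraries, and its differences rest on control values near the floor. Klf10, an early TGF-beta response transcription factor, was without overlap at 1338 ± 165 and 945 ± 175 normalized counts (log2 fold change 0.51, adjusted p = 0.264 from limma). Hmga2, a chromatin protein, was the only gene of the target list at an unadjusted p under 0.05 in the other direction, at -0.57 on the log2 scale (adjusted p = 0.301 from limma). Ctgf, also called Ccn2 and a widely used marker of TGF-beta activity, is given because it did not follow the matrix genes and was chosen after its values were seen. Its values were 189, 192 and 209 in the Nedd4l fl/fl VillinCre replicates and 211, 148 and 258 in the controls (log2 fold change -0.029, adjusted p = 0.960 from limma). Postn, Acta2 and Tagln of the same list, also chosen after their values were seen, overlapped between the genotypes. Their log2 fold changes were 0.35, -0.064 and -0.47 (adjusted p = 0.636, 0.949 and 0.546 from limma).

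**Figure D4:**
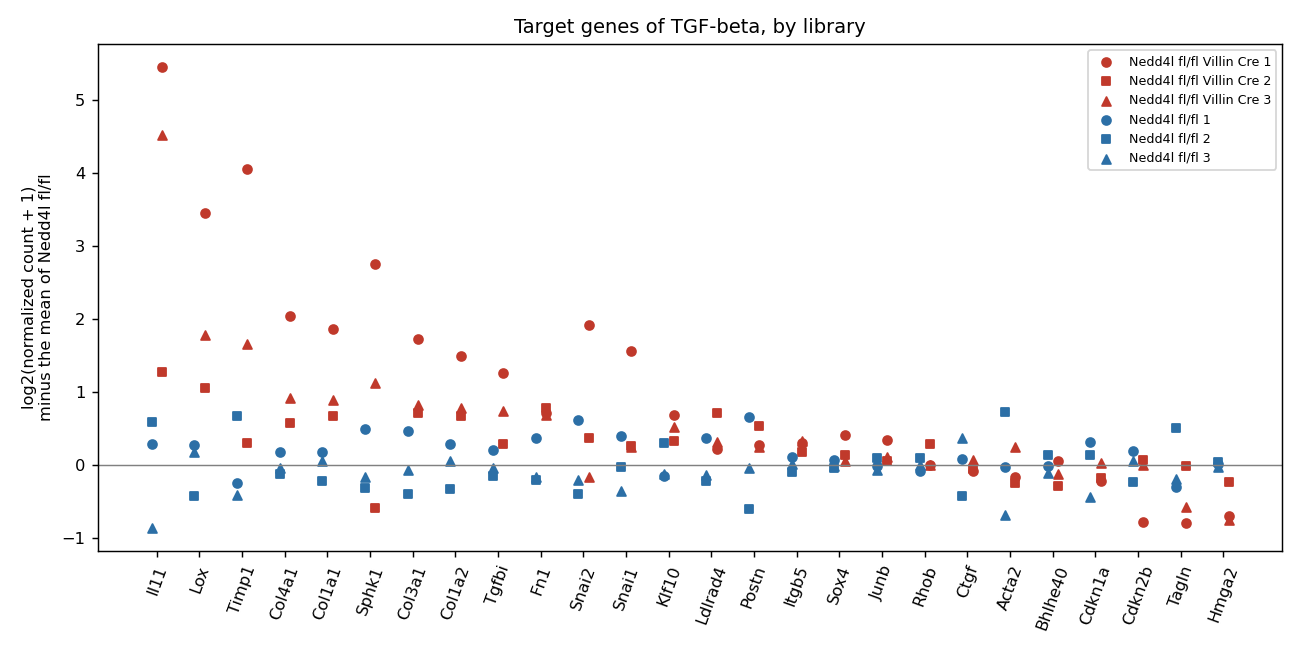
Log2 of the normalized count + 1 minus the control mean over 3 libraries (vertical axis) for 26 of the 27 tested genes regulated by TGF-beta, ordered by log2 fold change, in 6 libraries. Red symbols are Nedd4l fl/fl VillinCre and blue symbols Nedd4l fl/fl, with the replicate number given by shape. Nedd4l fl/fl VillinCre replicate 1 is the highest library for 14 of the 26 genes, and replicate 2 lies nearest to the controls for Il11 and Lox.

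Markers of the cell types in the tissue were read beside these groups. The 6 fibroblast markers (Pdgfra, Pdgfrb, Dcn, Lum, Thy1 and Pdpn) all had log2 fold changes above 0, beside 50.2% of all genes. Their median was 0.53, and Lum was at 0.13. Their summed level ran from 4372 to 9114 in Nedd4l fl/fl VillinCre mice and from 2757 to 5015 in controls, with overlap. Of these 6, only Thy1 and Pdpn separated the genotypes. Nedd4l fl/fl VillinCre replicate 1, the highest library for most matrix genes and for Tgfb1 and Tgfbr2, was also the highest for the fibroblast sum. All 6 macrophage and monocyte markers were above 0 (median 0.57), with summed levels of 6853 to 7964 against 3868 to 6357 and no overlap. Most of that sum was Lyz2, with 5467, 5830 and 4727 in Nedd4l fl/fl VillinCre replicates 1, 2 and 3 and 4254, 2795 and 4081 in the controls. Of the 6, only Lyz2 and Ccr2 separated the genotypes, where 10.5% of all genes lay above the controls. Csf1r and Adgre1 had log2 fold changes of 0.098 and 0.16, with overlap. Of the 4 endothelial markers 3 were above 0 and 1, Kdr, was below at -0.066, with a median of 0.41. Each of them overlapped between the genotypes, and so did their summed levels, 1330 to 2408 against 944 to 1461. Neutrophil markers had sums of 146 to 6567 against 94.5 to 137. The 6 epithelial markers had a median of -0.039, and their sums, 138806 to 156578 against 146326 to 163746, overlapped. Smooth muscle markers ranged from 3013 to 7430 against 3139 to 16006, with the highest sum in control replicate 2, the library with the lowest Tgfb1 and Tgfbr2. Summed B and plasma cell markers (30224 to 41819 against 21194 to 40458), T cell markers (435 to 481 against 404 to 612) and platelet markers (93.9 to 146 against 78.3 to 148) overlapped. So did those of red cells (110 to 294 against 94.5 to 312), enteric neurons and glia (22.1 to 69.1 against 42.9 to 96.3) and adipocytes (38.2 to 76.3 against 36.9 to 60.2). No marker was at 0 in all 6 libraries. The part of fibroblast, endothelial and myeloid content in the values of Tgfb1, the latency genes and the matrix genes was not tested.

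Genes with the library pattern most like that of the 2 members with the smallest p were sought among all tested protein-coding genes. Over the 6 libraries, Tgfb1 was most like Ms4a6b (Pearson r = 0.997), Inpp1 (0.996) and Pknox2 (0.996), on log2 values. Ms4a6b had 363, 252 and 255 normalized counts in the Nedd4l fl/fl VillinCre replicates and 235, 152 and 207 in the controls, which is the same order of libraries as for Tgfb1. Skil was most like Slamf8 (Pearson r = 0.998), Tgtp1 (0.996) and Ifitm3 (0.995). Tgtp1 and Ifitm3, both interferon-inducible, stood at 676, 115 and 405 and at 2169, 1046 and 1724 normalized counts in the Nedd4l fl/fl VillinCre replicates, against 89.9 to 99.9 and 883 to 997 in the controls. Such values are the highest among all protein-coding genes tested, over 6 libraries whose size factors all genes share, and they describe these libraries only.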

How the data were processed

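The 6 library columns of 1 table, 3 Nedd4l fl/fl VillinCre and 3 Nedd4l fl/fl colon samples, were used. The deposited values are a signal, normalized counts for which the authors scaled each library's gene reads by a single size factor. Every value was a whole multiple of the library's smallest value within 0.001. HISAT2 2.0.5 and featureCounts 1.5.0-p3 are named in the submitters' processing notes, with parameters not given in the sources used here. Those notes name a human build, but 97.2% of the 27202 genes have coordinates identical to release 21 of GENCODE on the mouse build GRCm38, and the coordinates printed are those of the table. The other column used, the gene length in bases, is per the file headers. Columns of the authors' genotype means and of their own fold changes, p-values and adjusted p-values were not used.

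Values were transformed to log2(value + 1), so that fold changes of low genes are understated, and 16246 genes (mean of 10 or more) were tested with limma 3.58.1 in R 4.3.3 (lmFit, eBayes with trend and robust settings, Benjamini-Hochberg adjustment, threshold 0.05). The script was tested on simulated data. There it called 13% of genes changed by 0.5 on the log2 scale and 44.8% of those changed by 1. The 10 genes, the pathway lists and the marker lists, written from general knowledge, were chosen with earlier results of these data known. Genes named from a list were those with an unadjusted p under 0.05, or otherwise the 2 with the smallest p; for the 2 members with the smallest p, the 3 most correlated genes are named. The values of 1 gene of the target list, which is included in the counts, are not reported here. Promoters are from RefSeq on GRCm38.p6. Plots were made in Python 3.11.15 (matplotlib 3.10.9).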

Additional observations from a re-analysis of the deposited data

How the results depend on the processing

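Over 15 alternatives, the 10 TGF-beta genes gave 150 values, of which 140 kept their direction and their side of the threshold, 10 changed sign and 0 passed an adjusted p of 0.05 in limma. Tgfb1, Tgfbr2, Smad4 and Skil kept their direction in every one, and their log2 fold changes ran from 0.29 to 0.55, 0.086 to 0.38, 0.14 to 0.47 and 0.17 to 0.35. Leaving out 1 library at a time moved Tgfb3 from -0.29 to 0.22, Tgfbr1 from -0.052 to 0.13, Smad2 from -0.044 to 0.021, Smad3 from -0.058 to 0.12 and Smad7 from -0.021 to 0.15. Limma's array weights gave Tgfb2 0.0094. Nedd4l passed the threshold with array weights (-1.09, adjusted p = 0.0212) and without Nedd4l fl/fl VillinCre replicate 2 (-1.28, adjusted p = 0.0130), and ran from -1.28 to -0.79 over single left-out libraries.

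Of the 16246 genes tested, array weights called 262 higher and 369 lower. Of the 27 tested genes regulated by TGF-beta, array weights called 5 (Il11, Fn1, Tgfbi, Klf10 and Hmga2). The median log2 fold change of that list was 0.35 in this setting, against 0.51 in the main fit. With no filter on low values 7 were higher and 23 lower. Leaving out single libraries gave from 0 to 70 higher and from 0 to 52 lower, the most without Nedd4l fl/fl VillinCre replicate 2, then with 1 called target gene (Il11), against 0 to 1 over all such fits. Without Nedd4l fl/fl VillinCre replicate 1, 2 were higher and 22 lower. The median of the target genes ran from 0.26 to 0.67, that of the co-receptors from -0.091 to 0.18 and that of the inhibitors and ligases from -0.015 to 0.087 over single left-out libraries. Not dividing by length moved the mean share of Tgfb2 among the ligands from 9.26% to 11.0% and that of Tgfb3 from 14.02% to 9.76%, which turned their order. The cause of these shifts was not tested.

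Both genotypes carry replicate numbers 1 to 3, and the labels state no pairing. Deviations of same-numbered libraries from their genotype means had correlations of -0.029, -0.090 and -0.056 over genes. With 3 libraries a genotype, such values cannot exclude a shared litter or batch. The fit with the replicate block called 0 genes higher and 0 lower, with a log2 fold change of 0.45 for Tgfb1 (adjusted p = 0.266 from limma), and it changed no call. The planned edgeR and DESeq2 tests and TMM scaling were not run. The rule used for recovering whole reads did not accept control replicate 3, whose smallest value is close to 1. Its values were still all whole multiples of that smallest value, as in the other libraries. With 3 libraries a genotype, differences below those that the intervals exclude cannot be resolved.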

Other observations

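Ligands of the activin branch, which signal through SMAD2 and SMAD3 by other receptors, were looked at after their values had been seen. Inhba, the activin A subunit, had 236, 53.1 and 100.1 normalized counts in Nedd4l fl/fl VillinCre replicates 1, 2 and 3 and 30.6, 36.9 and 32.0 in the control replicates. Every Nedd4l fl/fl VillinCre library was above every control for Inhba (log2 fold change 1.68, 95% interval 0.51 to 2.84, adjusted p = 0.277 from limma). Inhbb, the activin B subunit, had 240, 31.0 and 73.2 normalized counts against 24.7, 29.7 and 28.0. It was also without overlap, though replicate 2 was only just above the highest control (1.55, 95% interval -0.093 to 3.19, adjusted p = 0.370 from limma). Gdf15, a stress-induced member of the TGF-beta superfamily, was below the controls in all 3 libraries, with 46.0, 64.1 and 21.7 against 91.8, 76.5 and 70.9 normalized counts (-0.97, adjusted p = 0.334 from limma). Gdf11, Fst and Fstl3, a further ligand and 2 activin-binding proteins, had overlapping genotypes and log2 fold changes of 0.73, 0.27 and 0.094. None of these 6 genes passed an adjusted p of 0.05. Over all genes, 10.5% lay above the controls without overlap and 10.9% below.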
